A study of Mus musculus with 11 samples.

Results

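The core circadian clock was examined through 10 genes, namely Clock, Arntl, Per1, Per2, Per3, Cry1, Cry2, Nr1d1, Dbp and Bhlhe40, in the hypothalamus of male mouse offspring. The members were every non-control probe whose transcript accession belongs to one of these genes. They came to 11 probes of the 39429 mouse probes on the array, and to 10 of the 19987 genes that could be named. Dbp had 2 probes and the other 9 genes had 1 probe each. All 11 member probes were well above background on all 11 arrays, so none was lost to the filter on dim probes.

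HFD offspring (n = 6) came from C57BL/6N dams kept on a high-fat diet from after weaning through pregnancy and lactation, and CO offspring (n = 5, titled SD) from dams on standard chow throughout. All were males at postnatal day 21, and hypothalamic RNA was measured on Agilent one-colour arrays. Per the methods, animals lived under a light and dark cycle and were collected non-fasted within a single time window in the morning, so each gene was read at 1 phase of the day and neither amplitude nor phase was measured. The labels do not tie samples to dams, so p-values here measure the spread between these samples, some of which may share a dam.

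CO sample 1 lay on 1 slide and CO samples 2 to 5 on another, HFD samples 1 and 2 lay on a further slide and HFD samples 3 to 6 on the last, the scans were 337 days apart, and the images of each group were extracted with a different protocol. Diet group, slide and scan session therefore cannot be told apart in any comparison here. On HFD arrays 71.8% to 77.4% of spots were clearly brighter than background, against 82.5% to 85.7% on CO arrays. Across the 17197 genes tested, 66.4% passed an adjusted p of 0.05 (22.2% upward and 44.2% downward in HFD), and in 46.6% the groups did not overlap. The median difference of all genes was -0.17 on the log2 scale, so the array-wide shift was itself downward. HFD sample 1 stood apart in the hypothalamic markers, with a mean deviation of -0.55 from each gene's mean. The other HFD samples lay between -0.03 and 0.29, and the CO samples between -0.10 and 0.06. Levels below are log2 signals relative to the 75th percentile of the same array, and differences are HFD minus CO on that scale.

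In mammals the clock is a feedback loop of transcription. The proteins CLOCK and BMAL1 (the product of Arntl) pair and activate genes through E-boxes, among them the Per and Cry genes, whose proteins return to the nucleus and repress CLOCK and BMAL1. A further loop runs through REV-ERB alpha (Nr1d1), which represses Arntl through response elements that hold the letters AGGTCA, and DBP activates genes through D-boxes. The suprachiasmatic nucleus of the hypothalamus holds the master clock, which light entrains.

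These elements can be seen in the promoters of several members. RefSeq promoter windows of 300 bases (250 before the start of the gene and 50 after it, GRCm38.p6) matched 8 of the 10 members, in 12 windows, and Per2 and Bhlhe40 were not matched. The letters CACGTG (E-box, the same on both strands) were found in 2 members, TTATGTAA or TTACGTAA on either strand (D-box) in 1 member and AGGTCA on either strand in 3 members. Over all 32851 windows the shares were 7.15% for the E-box, 1.06% for the D-box and 16.3% for AGGTCA, and none of these motifs overlaps another in the stretches shown. The stretches below were chosen because they hold the elements by which the loop acts on its own members, and Ciart, a repressor of CLOCK and BMAL1, is added for its 3 E-boxes. Capitals mark the motifs, and each stretch reads 5′ to 3′ on the strand of its gene.
Per1 (chr11:69098769-69098848, plus strand): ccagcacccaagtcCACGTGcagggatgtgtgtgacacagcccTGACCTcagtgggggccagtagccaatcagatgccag
Cry1 (chr10:85185075-85185154, minus strand): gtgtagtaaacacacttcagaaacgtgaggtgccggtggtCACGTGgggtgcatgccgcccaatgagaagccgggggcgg
Per3 (chr4:151044801-151044880, minus strand): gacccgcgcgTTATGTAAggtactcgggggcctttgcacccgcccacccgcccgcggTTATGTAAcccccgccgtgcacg
Ciart (chr3:95882259-95882358, minus strand): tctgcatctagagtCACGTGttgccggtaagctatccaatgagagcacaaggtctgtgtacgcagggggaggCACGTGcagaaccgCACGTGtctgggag
Arntl (chr7:113207527-113207556, plus strand): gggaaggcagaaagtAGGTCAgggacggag
The Per1 stretch holds an E-box 166 bases before the start and AGGTCA on the opposite strand 137 bases before it. The Cry1 E-box lies 60 bases before the start, the D-boxes of Per3 lie 205 and 158 bases before it, and the AGGTCA of Arntl begins at base 32 after the start. A match describes the letters only.

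Clock was higher in HFD offspring, Arntl, Per3 and Nr1d1 were lower, and Per1, Per2, Cry1, Cry2, Dbp and Bhlhe40 did not pass the test. Thus 1 of 10 members was called higher, against 22.2% of all genes, and 3 of 10 were called lower, against 44.2% of all genes. In 1 member all HFD samples lay above the CO samples, which held for 16.1% of all genes, and in 3 members they lay below, which held for 30.5%. The median difference over the members was -0.19, against -0.17 over all genes. The share of members called, 40.0%, was below the 66.4% of all genes, and among the members Clock had the largest difference.

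Clock, the activator that pairs with BMAL1, ranged from -0.11 to 0.12 with a median of -0.05 in HFD samples, against -1.29, -1.84, -1.03, -1.01 and -1.74 in CO samples 1 to 5. The lowest HFD sample was well clear of the highest CO sample. The difference was 1.36 (SE 0.15, 95% interval 1.03 to 1.70), a 2.58-fold higher signal in HFD (limma, adjusted p = 1.39e-05 over all probes). A difference at least as large and positive was found for 3.27% of all genes. Clock remained higher under each scaling tried, with 0.69 as its smallest difference when arrays were scaled to their spike-in probes. It did not pass the Rank Product test that the methods name (percentage of false positives 0.0071 for its probe, threshold 0.001), which called 4.48% of all genes.

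Clock was also read beside the share of spots well above background on each array. CO samples 2 and 5 had the lowest Clock values and also the highest shares, 85.7% and 85.2%. CO sample 1 had the lowest CO share, 82.5%, but a lower Clock value than CO samples 3 and 4. Among HFD samples, sample 3 had the lowest share, 71.8%, with Clock at -0.08, and sample 1 had 75.5%, with Clock at 0.08. Nr1d2 and Rora had the largest upward differences among the other clock transcription factors. Both also had their lowest levels in CO samples 2 and 5 (Nr1d2 -0.43 and -0.64, Rora 0.83 and 0.45). The HFD medians were 0.88 for Nr1d2 and 2.12 for Rora. Creb1, which rose more, did not follow this order, since it was lowest in CO samples 1 and 2 (-3.53 and -3.52) and at -3.28 in CO sample 5. Other genes named below did follow it. Kdm5a (-2.18 and -1.94), Nr3c1 (0.86 and 0.70) and Ppp1cb (3.01 and 2.84) were lowest in CO samples 2 and 5. Ddx5 was instead lowest in CO samples 1 and 3 (2.95 in both). All genes of this comparison were chosen after their values were seen, and the order was not counted over all genes. The part of signal detection in the difference of Clock was not tested.

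**Figure D1:**
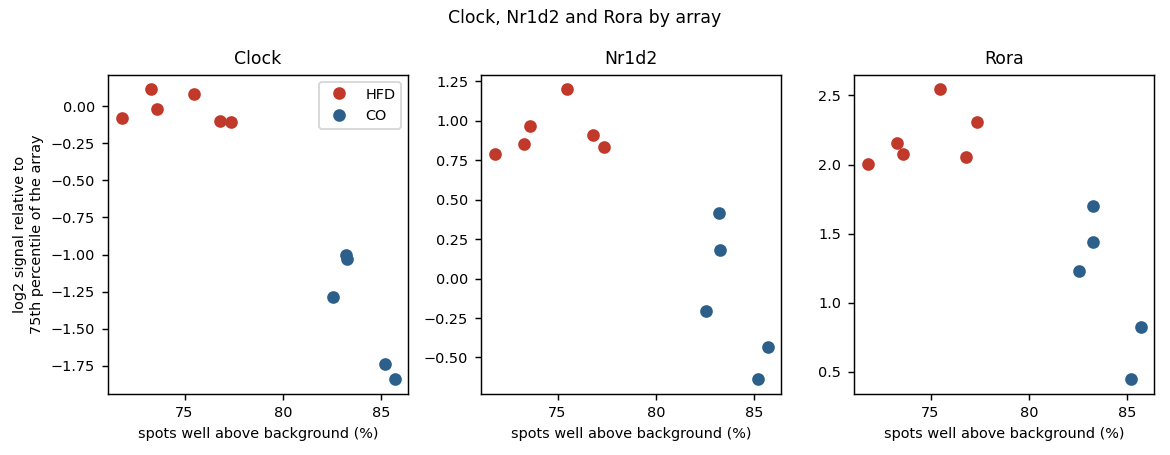
Log2 level of Clock, Nr1d2 and Rora (vertical axes, relative to the 75th percentile of the array) against the percentage of spots well above background (horizontal axis), 1 point for each array, HFD in red and CO in blue. HFD arrays lie between 71.8% and 77.4% and CO arrays between 82.5% and 85.7%, and in all 3 genes the CO points stay below the HFD points.

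Arntl, which encodes BMAL1, moved the other way. It ranged from -0.26 to 0.09 with a median of -0.02 in HFD samples, against 0.37, 0.24, 0.14, 0.17 and 0.25 in CO samples. The groups did not overlap, but the gap between the highest HFD and the lowest CO sample was narrow. The difference was -0.30 (SE 0.08, 95% interval -0.47 to -0.13, limma adjusted p = 0.00462). Set against the median shift of all probes it was -0.12. Arntl stayed lower under each scaling tried.

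Because a ratio of 2 probes within an array is unchanged by any constant factor applied to that array, though not by quantile normalization or background correction, 8 pairs of members were compared in this way, with p-values adjusted over the 8 pairs. Only the difference of a ratio between groups can be read, since probes differ in brightness. Arntl over Clock lay between -0.17 and 0.11 in HFD samples and between 1.17 and 2.08 in CO samples. The log2 ratio was thus lower by 1.66 in HFD (difference -1.66), with no overlap (exact two-sided permutation test, p = 0.00216, the smallest that 6 against 5 arrays allow, adjusted p = 0.00866). The ratio combines the differences of Clock (1.36) and Arntl (-0.30) given above. How many other gene pairs separate the groups in this way was not computed.

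**Figure D2:**
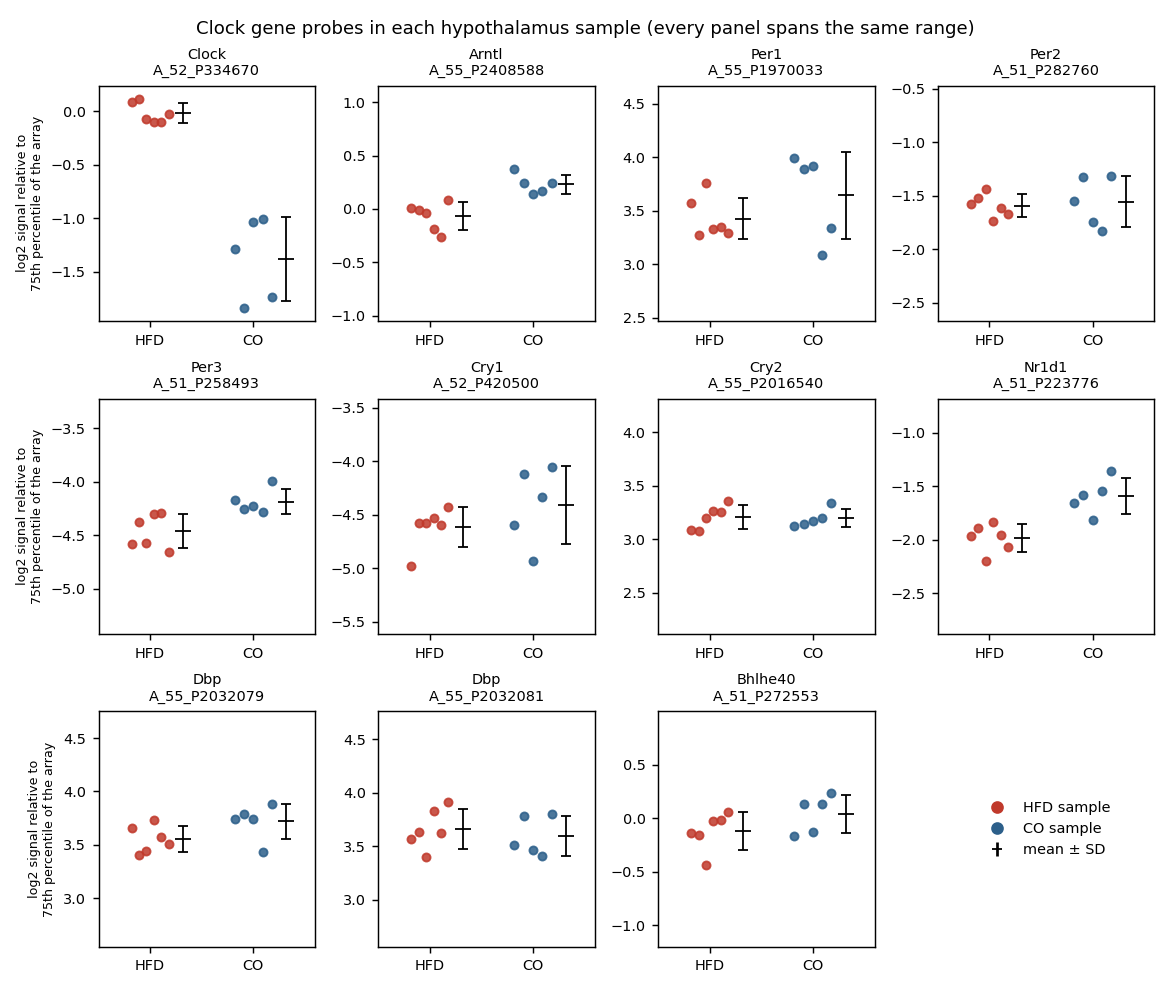
Log2 signal of the 11 member probes relative to the 75th percentile of the array (vertical axes, all spanning the same range), 1 point for each sample, with HFD left in red and CO right in blue and black bars for mean ± SD (n = 6 and n = 5). Clock is the only panel with a wide gap between the groups, and the CO samples of Per1 fall into an upper and a lower set.

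The Per genes encode the repressors that accumulate in the loop, and Per1 also responds quickly to light and glucocorticoids. Per1 ranged from 3.27 to 3.76 with a median of 3.34 in HFD samples, against 4.00, 3.89, 3.92, 3.09 and 3.34 in CO samples. The groups overlapped because CO samples 4 and 5 lay within or below the HFD range. The difference was -0.22 (95% interval -0.60 to 0.16, limma adjusted p = 0.276), and without CO sample 4 it was -0.36 and passed.

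Per2 ranged from -1.74 to -1.43 with a median of -1.60 in HFD samples, against -1.55, -1.33, -1.75, -1.83 and -1.31 in CO samples. The CO values spanned the HFD values on both sides, and the difference was -0.04 (95% interval -0.27 to 0.19, limma adjusted p = 0.759). Its sign turned when arrays were scaled to their median.

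Per3 was the Per gene that passed the test. It ranged from -4.65 to -4.29 with a median of -4.47 in HFD samples, against -4.17, -4.26, -4.23, -4.28 and -3.99 in CO samples. The highest HFD sample fell just short of the lowest CO sample. The difference was -0.28 (SE 0.09, 95% interval -0.47 to -0.08, limma adjusted p = 0.0164), or -0.10 relative to the median of all probes. It did not pass after quantile normalization (-0.09), after scaling to the median (-0.21), or after normexp background correction (-0.09).

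The Cry genes encode the partners of the PER proteins in repression. Cry1 ranged from -4.98 to -4.42 with a median of -4.57 in HFD samples, against -4.59, -4.12, -4.93, -4.34 and -4.05 in CO samples. HFD sample 1 and CO sample 3 stood lowest, and the groups overlapped. The difference was -0.21 (95% interval -0.55 to 0.14, limma adjusted p = 0.262), and without CO sample 3 it was -0.34 and passed.

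Cry2 ranged from 3.08 to 3.35 with a median of 3.23 in HFD samples, against 3.12, 3.15, 3.17, 3.20 and 3.34 in CO samples. It had the narrowest interval of the members around 0, with a difference of 0.01 (95% interval -0.14 to 0.16, limma adjusted p = 0.885). The lower bound of that interval lay above the difference of Nr1d1 given below. With spike-in scaling, which lowers every probe by the same 0.67, it was -0.66, and with normexp it was -0.05. Within arrays, Per1 over Per2 differed by -0.18, Per2 over Per3 by 0.24 and Cry1 over Cry2 by -0.22, and none of the 3 ratios passed (exact permutation tests, adjusted p = 0.398, 0.156 and 0.216).

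Nr1d1, the repressor of Arntl, had the largest downward difference of the members. It ranged from -2.20 to -1.83 with a median of -1.96 in HFD samples, against -1.65, -1.58, -1.82, -1.54 and -1.36 in CO samples. The groups did not overlap, although HFD sample 4 and CO sample 3 nearly met. The difference was -0.39 (SE 0.09, 95% interval -0.59 to -0.19, limma adjusted p = 0.00254), or -0.22 relative to the median of all probes. A difference of at least this size in either direction was found for 47.9% of all genes. After normexp background correction it was -0.25 and did not pass.

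Dbp, a D-box activator and itself a target of CLOCK and BMAL1, was read by 2 probes. The brighter, A_55_P2032081, ranged from 3.40 to 3.92 with a median of 3.63 in HFD samples, against 3.51, 3.79, 3.46, 3.41 and 3.80 in CO samples, a difference of 0.07 (95% interval -0.17 to 0.31, limma adjusted p = 0.600). The other, A_55_P2032079, ranged from 3.41 to 3.73 with a median of 3.54 in HFD samples, against 3.74, 3.79, 3.75, 3.44 and 3.88 in CO samples, a difference of -0.16 (limma adjusted p = 0.125). The probes differed from each other between the groups by -0.23 (exact two-sided permutation test over 6 HFD and 5 CO arrays, p = 0.0411, 1 pair), so the direction of Dbp depends on the probe.

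Bhlhe40, which encodes the E-box repressor DEC1, ranged from -0.44 to 0.05 with a median of -0.08 in HFD samples, against -0.17, 0.13, -0.13, 0.13 and 0.24 in CO samples. The groups overlapped, and the difference was -0.16 (95% interval -0.39 to 0.07, limma adjusted p = 0.190).

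Nr1d1, Dbp and Bhlhe40 are all E-box targets of CLOCK and BMAL1, and their ratios were compared within arrays. Dbp over Nr1d1 lay between 5.52 and 5.98 in HFD samples and between 4.95 and 5.37 in CO samples, a difference of 0.46 with no overlap (exact permutation test, p = 0.00216, adjusted p = 0.00866). On the mean of both Dbp probes the difference was 0.34 (adjusted p = 0.0173), and on the dimmer probe alone 0.23, where the groups overlapped (exact permutation test, p = 0.0498, not adjusted). Bhlhe40 over Nr1d1 lay between 1.73 and 2.12 in HFD samples and between 1.49 and 1.71 in CO samples, a difference of 0.23 with no overlap (adjusted p = 0.0115 by the same exact test), and without CO sample 1 it was 0.19 and did not pass. Neither passed after normexp background correction, where they were 0.06 and -0.09. Arntl over Nr1d1 differed by 0.09 and Arntl over Dbp by -0.37, and neither passed (exact permutation tests, adjusted p = 0.446 and 0.0519). Nr1d1 by itself did not overlap between the groups, which held for 46.6% of all genes. For these ratios too, the share of other gene pairs that separate the groups was not computed.

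**Figure D3:**
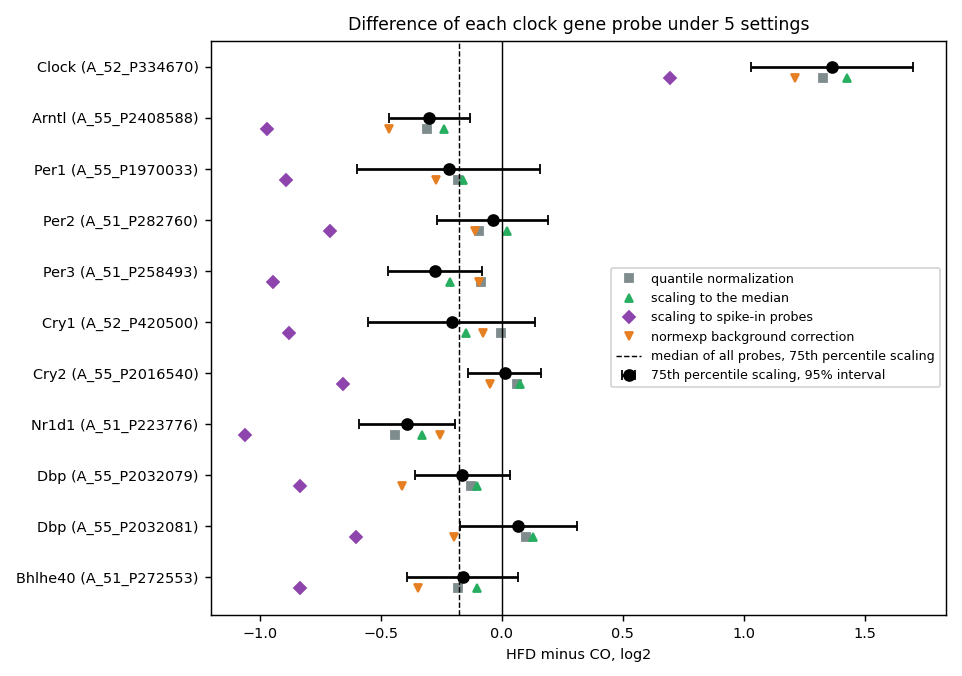
HFD minus CO difference (horizontal axis, log2) of each member probe, with black points and 95% intervals for 75th percentile scaling and coloured symbols for 4 other settings. Clock lies to the right of 0 under every setting, and scaling to spike-in probes moves all probes to the left, from 0.69 for Clock to -1.06 for Nr1d1.

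The direction of the smaller differences rests on the scaling. The spike-in probes, which read control RNA of the labelling kit, were 0.67 higher in HFD relative to the 75th percentile (exact two-sided permutation test over 6 HFD and 5 CO arrays, p = 0.00216). Scaled to them, the median of all probes was -0.85, and 9 of 10 members were called lower, all but Clock, where 83.6% of all genes were called lower. Relative to that median, the difference of Clock and the order of the members were as before, since the scaling adds the same amount to each probe.

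The members also varied unequally among samples of a group. The median SD over all probes was 0.15 in HFD and 0.18 in CO. Clock had an SD of 0.10 in HFD and 0.39 in CO, Per1 0.19 and 0.41, and Cry1 0.19 and 0.36 in the same order. Arntl (0.13 in HFD and 0.09 in CO) and Cry2 (0.11 in HFD and 0.08 in CO) were among the steadier members.

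The CO samples of Per1 separated by the number at the start of the sample titles, whose meaning the labels do not give. The 3 CO samples numbered 65 had Per1 levels of 3.89 to 4.00, and the 2 numbered 89 had 3.09 to 3.34. Of 28 genes examined (the members and the glucocorticoid, light input and activity response genes), 8 had the samples numbered 65 above those numbered 89 without overlap and 2 had them below, against 12.4% and 9.40% of all genes. The 8 were Per1, Sgk1, Ddit4, Fos, Nr4a1, Dusp1, Sik1 and Adcyap1r1. Sgk1, a kinase gene induced by glucocorticoids, was at 3.30 to 3.53 against 2.21 to 2.39, and the immediate early gene Fos at -0.57 to -0.19 against -1.161 to -1.002. The 2 that lay below were Nr1d1 and Cry2 (Nr1d1 -1.82 to -1.58 against -1.54 to -1.36, Cry2 3.12 to 3.17 against 3.20 to 3.34). Clock, Arntl, Per2, Per3, Cry1, Dbp and Bhlhe40 overlapped between the numbers. The split was noticed in the data, and no test was made with 3 against 2 samples.

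Sgk1 was then set beside Per1 within the 6 HFD samples, a pair singled out after the values were seen. Sgk1 was 2.67, 2.28, 3.26, 2.40, 2.55 and 1.93 in HFD samples 1 to 6, and HFD sample 3 was highest in both genes. Pearson's r was 0.910 (exact permutation p = 0.00556) and Spearman's rho 0.943 (exact permutation p = 0.0167), and r was 0.891 without the 2 samples farthest from the median of Sgk1. Over the 18 relations computed with glucocorticoid and activity response genes, the adjusted values were 0.100 for r and 0.300 for rho, so none passed the correction. Over all 11 arrays, Sgk1 was at rank 1581 of 15379 genes by distance to Per1, by the measure of profile likeness described next. That distance also depends on the size of the variation, and Sgk1 varied more than Per1 (SD 0.44 against 0.19 in HFD, 0.63 against 0.41 in CO). The rank is therefore no measure of their correlation, which was computed only within the HFD samples. Between the groups, Sgk1 differed by -0.46 and, like Per1, did not pass (limma adjusted p = 0.178).

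**Figure D4:**
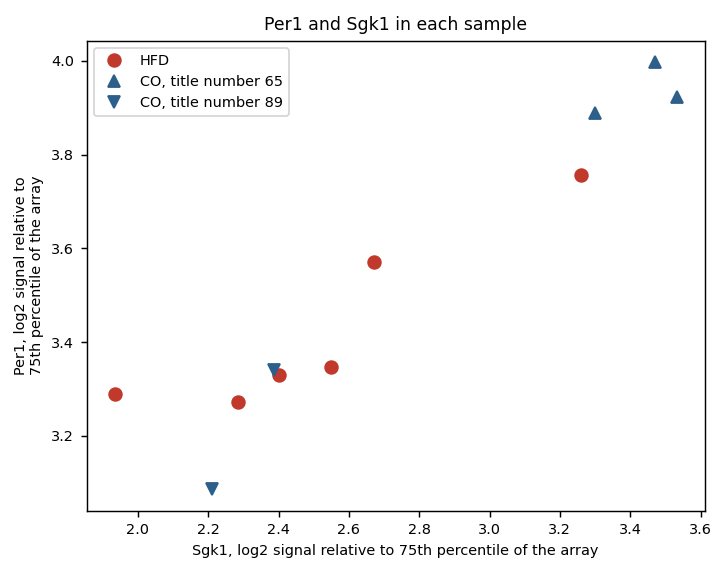
Log2 level of Per1 (vertical axis) against Sgk1 (horizontal axis), both relative to the 75th percentile of the array, 1 point for each sample, HFD as red circles and CO as blue triangles by title number. The 3 CO samples numbered 65 sit at the top right (Per1 3.89 to 4.00), and the 2 numbered 89 sit among or below the lower HFD samples.

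Genes whose profile over the 11 arrays was most like that of a member were found by the root mean square distance between centred profiles, among 15379 genes well above background on all arrays. Nearest to Clock were Tmem245 (distance 0.07), Dhx36 (0.08) and Psmc6 (0.08), with differences of 1.38, 1.41 and 1.43. Nearest to Nr1d1 were Pole4, Coq8a and Aagab (each 0.08), and nearest to Arntl were Trp53inp2 (0.06), Pycrl (0.06) and Srr (0.07). The median distance of all genes was 0.81 to Clock, 0.28 to Nr1d1 and 0.26 to Arntl.

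Around the members, 99 further genes of 8 clock lists were read, of which 98 were tested. In HFD, 28 rose, 29 fell and the remaining 41 missed the threshold, so 58.2% were called against 66.4% of all genes. Of all genes 22.2% were called higher and 44.2% lower, and the counts of each list below are to be read beside these shares. Their median difference was -0.02. In bulk tissue, fewer cells of a type and less RNA per cell cannot be told apart. Differences below are from the brightest probe of each gene, with limma p-values adjusted over all genes.

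**Figure D5:**
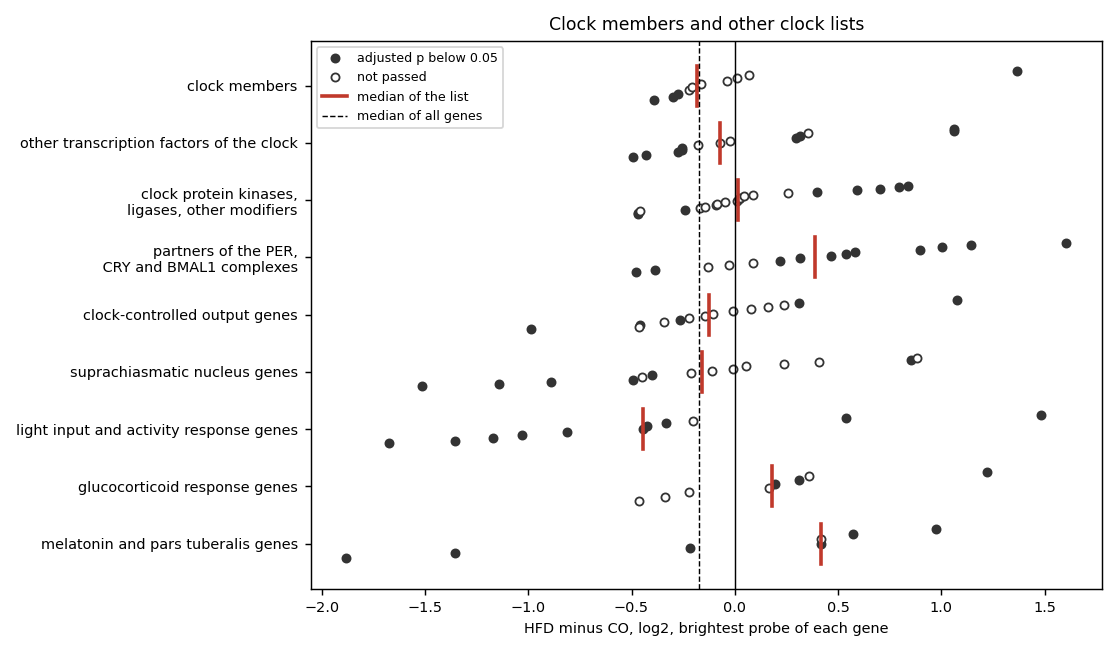
HFD minus CO difference (horizontal axis, log2) of each tested gene in the members and in 8 other clock lists (rows), filled where the adjusted p was below 0.05, with the median of each list in red and of all genes dashed. The partners of the PER, CRY and BMAL1 complexes have a median of 0.39, the melatonin and pars tuberalis genes 0.42, and the light input and activity response genes -0.45.

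Among 13 other transcription factors of the clock, 4 rose, 5 fell and 4 missed the threshold (median -0.07). Nr1d2, which encodes the second REV-ERB repressor, ranged from 0.79 to 1.20 in HFD samples and from -0.64 to 0.41 in CO samples, a difference of 1.06 (adjusted p = 0.000216). It thus lay opposite to its paralog Nr1d1. Rora, an activator that competes with the REV-ERB proteins, rose by 1.06 (adjusted p = 0.000654). Npas2, which can stand in for CLOCK, fell by 0.49 (adjusted p = 0.00123), and Nfil3, a repressor at D-boxes, fell by 0.43 (adjusted p = 4.93e-05). Ciart, whose E-boxes are shown above, rose by 0.32 (adjusted p = 0.00664) and was named for its sequence. Bhlhe41 (-0.02) and Arntl2 (-0.07) did not pass, although a second probe of Arntl2 fell by 0.53.

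Among 20 kinases, ubiquitin ligases and other modifiers of clock proteins, 5 were higher, 3 lower and 12 did not pass (median 0.02). Ppp1cb, a catalytic subunit of protein phosphatase 1, rose by 0.79 (adjusted p = 2.57e-05), and Prkaa2, a catalytic subunit of AMPK, rose by 0.70 (adjusted p = 5.00e-05). Csnk1d, a kinase of the PER proteins, fell by 0.47 on one probe and 0.53 on the other (adjusted p = 2.78e-05 for the brighter), and Fbxl15 fell by 0.47 (adjusted p = 0.000163). Csnk1e, the related PER kinase, was at 0.01 on its brightest probe and at -0.66 on another, and Btrc, a ligase subunit for PER proteins, was at 0.03.

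Of 15 partners of the PER, CRY and BMAL1 complexes, 14 were tested, and Kmt2a was not. In HFD, 9 were higher, 2 lower and 3 did not pass (median 0.39), where 22.2% of all genes were higher and 44.2% lower. Kdm5a, a histone demethylase that binds CLOCK and BMAL1, rose by 1.61 (adjusted p = 1.39e-06), and Cbx3, a heterochromatin protein, by 1.14 (adjusted p = 1.42e-06) with its other probe at 1.14. Ddx5, an RNA helicase, rose by 1.00 (adjusted p = 1.33e-06), while its other 2 probes rose by 0.35 and 0.27. Crebbp, a histone acetyltransferase, rose by 0.90 (adjusted p = 4.41e-06). Sin3a (-0.03) and Kat2b (-0.13) did not pass.

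Of 14 clock-controlled output genes, 2 rose, 3 fell and 9 missed the threshold (median -0.13). Lonrf3 rose by 1.08 (adjusted p = 0.000140) on 1 probe and was at 0.00 on the other. Cdkn1a, a cell cycle inhibitor, fell by 0.99 (adjusted p = 0.00104), Por, the electron donor of cytochrome P450 enzymes, by 0.46 (adjusted p = 0.00117) and Tspan4 by 0.26 (adjusted p = 0.00540). Hspa5 (-0.01) and Pdk4 (0.08) did not pass.

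All 14 suprachiasmatic nucleus genes were well above background on every array. According to the methods, the tissue was cut directly behind the optic chiasm, and how much of this nucleus it held was not measured. With all samples, 1 gene was higher, 5 were lower and 8 did not pass (median -0.16). Prokr2, the receptor of the output peptide prokineticin 2, rose by 0.85 (adjusted p = 4.96e-06). Lhx1, a transcription factor of this nucleus, fell by 1.14 (adjusted p = 2.97e-05), Gpr176 by 0.49 (adjusted p = 0.000253) and Rasl11b by 0.89 (adjusted p = 0.000294). Grp (-0.01) and Prok2 (-0.11) did not pass, and neither did the peptide genes Vip (-0.45, adjusted p = 0.299) and Avp (0.24, adjusted p = 0.517), which are named here as the markers of its core and shell. Avp is also among the hypothalamic markers read below, so its signal in this tissue cannot be assigned to this nucleus alone. Vip ranged from -4.77 to -2.79 in HFD samples and from -3.40 to -1.91 in CO samples, a wide spread within both groups. HFD sample 1 was the lowest of all samples for Vip, Avp, Nms and Prok2, and its mean deviation over the list was -0.54, against -0.14 to 0.15 in the other HFD samples. Without HFD sample 1, a comparison added after the data were seen, 4 genes were higher, namely Prokr2, Nms (0.57), Six6 (1.20) and Avp (0.52, limma adjusted p = 0.0166), and 5 were lower as before.

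Of 11 light input and activity response genes, 2 rose, 8 fell and 1 missed the threshold (median -0.45). Over all genes, 22.2% rose and 44.2% fell. Opn4, the photopigment gene melanopsin, was at -1.68 (adjusted p = 3.58e-06) and is 1 of the 8 list genes that fell. It was well above background on only 3 of 6 HFD arrays, against 5 of 5 CO arrays, and so passed the filter through the group in which it was brighter. Junb fell by 1.36 (adjusted p = 2.81e-05) and Nr4a1 by 1.17 (adjusted p = 8.38e-05), both immediate early genes. Creb1, a transcription factor that relays light signals to Per1, rose by 1.48 (adjusted p = 6.32e-06) on 1 probe, and its other probe was at -0.06. Fosb fell by 0.45 (adjusted p = 0.0230), and Dusp1 was at -0.20 and did not pass.

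Of 8 glucocorticoid response genes, 3 rose, none fell and 5 missed the threshold (median 0.18). Nr3c1, the glucocorticoid receptor, rose by 1.22 (adjusted p = 7.62e-05) and by 0.54 on its other probe. Tsc22d3 rose by 0.31 (adjusted p = 0.0166) and Klf9 by 0.20 (adjusted p = 0.0208), while Ddit4 (-0.34) and Fkbp5 (0.17) did not pass. HFD sample 3 stood apart in this list, with a mean deviation of 0.40, against -0.13 to 0.10 in the other HFD samples. Tsc22d3 was at 4.34 in that sample, with an HFD median of 3.88, and its groups did not overlap. Of 7 melatonin and pars tuberalis genes, 3 were higher and 3 lower, and the median (0.42) and the mean (-0.15) differed in sign. Mtnr1b, a melatonin receptor, fell by 1.88 (adjusted p = 1.18e-05) and Dio3, which inactivates thyroid hormone, by 1.35 (adjusted p = 0.000125). The level of Mtnr1b in HFD was low (mean -5.90), as were those of Junb (-5.11), Lhx1 (-4.97) and Npas2 (-5.13) named above. Each was well above background on all 11 arrays, and the dependence of these falls on background correction was not examined. Dio2, which activates thyroid hormone, rose by 0.97 (adjusted p = 0.000142), Eya3 fell by 0.22 (adjusted p = 0.00311), Cga rose by 0.42 (adjusted p = 0.0384), and Tshb was at 0.42 and did not pass.

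The tissue label was checked against markers. Over all genes, 22.2% were called higher in HFD and 44.2% lower, and the marker counts are to be read beside these shares. All 12 hypothalamic marker genes were tested, and 2 were higher, 1 lower and 9 did not pass. Without HFD sample 1 there were 5 higher (Agrp, Hcrt, Pmch, Avp and Oxt) and 1 lower. Pmch (0.87) and Hcrt (0.58), peptide genes of the lateral hypothalamus, had the largest differences of those that passed. Markers of adjacent regions and of cell types were read in the same way. Of 6 striatal markers, 5 were lower in HFD (median -1.34), led by Adora2a (-2.71) and Ppp1r1b (-2.06), with mean deviations from each gene's mean of -1.60 to 0.18 in HFD samples and -0.78 to 1.96 in CO samples. Of 6 thalamic markers, 4 were higher and 1 lower (median 0.80), led by Synpo2 (1.18 on its brightest probe, but -0.39 and -1.04 on its other 2 probes, which both passed) and by Rora (1.06), which is also a clock gene, with mean deviations of 0.10 to 0.44 in HFD samples and -0.66 to 0.02 in CO samples. Of 6 oligodendrocyte markers 5 were lower (median -0.64). Mbp was at -0.89 on its brightest probe, at -0.42 on another, and at -0.17 on a further probe that did not pass. Of 6 neuronal markers 4 were higher (median 0.37, Elavl4 0.71). Of the astrocyte markers 0 rose and 2 of 6 fell (Gfap -1.31), of the microglial ones 2 rose and 3 of 6 fell (Csf1r -0.82), of the endothelial and pericyte ones 4 rose and 2 of 6 fell, and of the tanycyte and ependymal ones 1 rose and 2 of 6 fell. Of the cortical and hippocampal markers 1 rose and 1 of 6 fell, of 4 pituitary markers tested 1 rose, and of 4 red blood cell markers tested 3 fell. The part of these marker differences in the values of the clock genes was not tested.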

How the data were processed

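Hypothalamic RNA of 6 HFD and 5 CO samples was read on Agilent one-colour arrays. The deposited intensity values are the authors' scanner output from Agilent Feature Extraction (10.8 in the submitters' notes, 10.7.3.1 in the file headers), in which the processed signal is background-corrected and not scaled between arrays. Control and outlier spots were left out, spots of a probe were averaged on the log2 scale, and each array was scaled to the 75th percentile of its processed signals. The test covered probes flagged well above background on 5 or more of the 11 arrays (31800 probes, 17197 genes by their brightest probe), using limma 3.58.1 in R 4.3.3, two-sided, with Benjamini-Hochberg adjustment at 0.05. Genes were named by accession through RefSeq (GRCm38.p6), which matched 26369 of 39429 probes and left 13060 unnamed. No 2 arrays were identical. The number of arrays limits the precision.

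The members and gene lists were chosen with earlier results of these data known. All members were named, with up to 4 genes of smallest and 2 of largest adjusted p from each further clock list, up to 2 marker genes of largest difference, and the 3 genes nearest to each of the 3 members with the largest differences. Ratios were tested by exact permutation of 462 assignments. Alternatives were other scalings, normexp on the deposited median spot and background intensities (offset 50, in place of the planned mean spot intensities), filters, blocks, array weights, thresholds, omission of each array, the Mann-Whitney test, and the Rank Product test of the methods (percentage of false positives under 0.001, 100 shuffles). The fit was tested on simulated data with independent noise and no array-wide shift between the groups, unlike these arrays. It recovered 48% of 1.3-fold, 62% of 1.5-fold, 72% of 2-fold and 96% of 3-fold changes (50 probes each). Of 31511 unchanged probes it called 7.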

Additional observations from a re-analysis of the deposited data

Results flagged for a closer look

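In 44 groups of samples examined, covering each member probe and ratio and the genes Sgk1, Nr1d2 and Rora in HFD and in CO, 2 held a sample far from the others by Dixon's criterion, which chance alone exceeds in about 1 of 20 groups. For Cry1 in HFD, sample 1 was lowest at -4.98, with the nearest HFD sample at -4.60. For the log2 ratio of Dbp over Nr1d1 in HFD, the highest sample was at 5.98, with the nearest at 5.67. Both values come from probes that were well above background on that array, and no explanation was tested.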

How the results depend on the processing

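Clock stayed higher and Arntl lower under each alternative run, and outside the Rank Product test both kept an adjusted p below 0.05. The Rank Product test was held to a percentage of false positives under 0.001, where Clock was at 0.0071 and Arntl at 1.27. It called no member (0 higher, 0 lower). At an unadjusted p under 0.05 limma called 4, and the exact Mann-Whitney test called 4 as well (Clock, Arntl, Per3 and Nr1d1). Under the Rank Product test the differences of Clock (1.36), Arntl (-0.30), Per3 (-0.28) and Nr1d1 (-0.39) were unchanged and did not pass, since only the test differs, and it called 888 probes higher and 582 lower (410 and 358 genes). With an adjusted p below 0.001, Clock passed and 0 members were called lower (4601 probes higher and 7671 lower, 2254 and 4124 genes). With at least 2-fold change, Clock passed and 0 members were called lower (2340 probes higher and 4056 lower, 964 and 1724 genes).

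Scaling to spike-in probes called 2261 probes higher and 25572 lower (957 and 14369 genes), 9 members lower, and 7 genes of the other clock lists higher and 71 lower. It gave Per1 -0.89, Per2 -0.71, Cry1 -0.88, Bhlhe40 -0.83, and, with the sign turned, Cry2 -0.66 and Dbp -0.60. The median of all probes was -0.85 there, against -0.18 with the 75th percentile, -0.10 with quantile normalization and -0.11 with scaling to the median, and calls were 8.12%, 35.1%, 42.1% and 40.6% higher in HFD, in that order. Normexp called 4636 probes higher and 5469 lower (3908 genes lower, 45.9% of probe calls higher). It gave Nr1d1 -0.25 and Per3 -0.093, which did not pass, turned Cry2 to -0.050 and the brighter Dbp probe to -0.20, and called the other Dbp probe (-0.41). Among ratios, normexp gave Dbp over Nr1d1 0.056, and turned Bhlhe40 over Nr1d1 to -0.093, Arntl over Nr1d1 to -0.21 and Per2 over Per3 to -0.016. Quantile normalization gave Per3 -0.086, Per2 over Per3 -0.0076 with the sign turned, and Arntl over Dbp -0.41, which then passed. Scaling to the median gave Per3 -0.21, not passed, and turned Per2 to 0.023. With array weights Per1 passed (-0.34) and Per3 did not (-0.21). The causes were not tested.

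With each array left out in turn, Clock ranged from 1.25 to 1.46, Arntl from -0.33 to -0.26, Per1 from -0.36 to -0.13, Per2 from -0.11 to 0.022, Per3 from -0.31 to -0.23, Cry1 from -0.34 to -0.12, Cry2 from -0.017 to 0.048, Nr1d1 from -0.45 to -0.34, Dbp from 0.02 to 0.12 on the brighter probe and from -0.23 to -0.12 on the other, and Bhlhe40 from -0.21 to -0.10. Calls changed for Per1 and the dimmer Dbp probe (-0.23) without CO sample 4 and for Cry1 without CO sample 3, each then passing. The sign of Per2 turned without CO sample 2 (0.018) or 5 (0.022), and that of Cry2 without CO sample 1 (-0.0058) or HFD sample 6 (-0.017). Ratios ranged from -1.77 to -1.55 for Arntl over Clock, -0.42 to -0.31 for Arntl over Dbp, 0.04 to 0.15 for Arntl over Nr1d1, -0.32 to -0.06 for Per1 over Per2, 0.18 to 0.31 for Per2 over Per3, -0.34 to -0.14 for Cry1 over Cry2, 0.39 to 0.51 for Dbp over Nr1d1 and 0.18 to 0.26 for Bhlhe40 over Nr1d1. Arntl over Dbp passed without CO sample 2 or 5 or HFD sample 3, Cry1 over Cry2 passed without CO sample 3, and Bhlhe40 over Nr1d1 (0.19) did not pass without CO sample 1. Called probes ranged from 7066 to 7489 higher and 12838 to 13751 lower, genes from 3577 to 3813 higher and 7057 to 7583 lower, and members from 1 to 1 higher and 3 to 4 lower.

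Replicate numbers did not pair the samples: over 5 pairs, deviations of same-numbered samples correlated from -0.11 to 0.30, and 2 of 5 were closest to their own number. With a replicate block, which also gives HFD sample 6 no weight because number 6 has 1 sample, 19920 probes were called against 21347 with neither change, and against 7196 higher and 13392 lower without HFD sample 6 alone. Clock, Arntl, Per3 and Nr1d1 were called with the block, and Cry2 was at -0.017 with the sign turned, the same value as without HFD sample 6. A random block for slide (correlation -0.04) or title number (0.02) changed no member's call. Every slide and title number lay within a single group, so neither block can address the slide, scan session or protocol that differ between the groups. Precision is limited by 6 and 5 arrays.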
